A study of Mus musculus with 16 samples.

Results

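The genes described here act in vitamin A absorption and retinoid metabolism. They are Rbp2, Lrat, Isx, Rdh7, Adh1, Aldh1a1, Retsat and Dhrs3, 8 of the 24420 genes in each deposited table, chosen by gene symbol, and all 8 were measured in all 4 groups. The assay, 3' tag RNA sequencing, reads each transcript near its end, so levels of different genes can be set side by side without a length correction. The enterocyte groups were 4 WT and 5 Mfge8 null (Mfge8 KO) libraries of primary enterocytes, the cells that take up nutrients in the gut. The intestine groups were 4 WT and 3 Cd36 null (Cd36 KO) libraries of small intestinal tissue. All mice were of strain C57B6. The product of Mfge8 is secreted and acts through integrins, while that of Cd36 is a surface receptor for long-chain fatty acids that also takes part in carotenoid uptake. Age, sex, diet, the deleted parts of the 2 genes and any pooling of animals are not given in the sources used here, nor is it said whether each library had its own animal. The p-values therefore rest on the spread among libraries alone, which may be technical.

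Dietary vitamin A reaches the enterocyte as retinol, freed from retinyl esters in the lumen, or as carotenoids that are cleaved to retinal inside the cell. Retinol bound to RBP2 is esterified by LRAT and leaves in chylomicrons, while a smaller share is oxidised by retinol and retinal dehydrogenases to retinoic acid. Retinoic acid binds nuclear receptors and induces the transcription factor ISX, which in mice represses the genes for carotenoid uptake and cleavage and so closes a feedback loop.

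Depth was 1618369 to 2459812 reads per enterocyte library and 850297 to 1000694 per intestine library. Each value below is a normalised read count, scaled by a size factor for its library, and the experiments were normalised in separate tables. The targeted genes followed the labels, though Mfge8 was low in both enterocyte groups. Mfge8 was 14.8 ± 6.70 in WT and 3.45 ± 2.43 in Mfge8 null enterocytes (SD, n = 4 and 5). The groups did not overlap, but WT 4, at 7.94, and null 4, at 7.50, lay close together. Mfge8 passed the test used below (limma adjusted p = 0.0362), a call kept in 8 of 19 alternative settings. Cd36 was 111 to 116 over the WT and 6.48 to 15.97 over the Cd36 null intestine libraries. All 10 enterocyte markers were measured in both preparations, but the enterocyte libraries also held goblet cell genes. Their 7 markers summed to 32735 to 104690 normalised reads per library, against 39570 to 69373 for the 10 enterocyte markers. Most of the goblet sum was 1 gene, Zg16, with means of 49944 in WT and 53100 in Mfge8 null enterocytes. Smooth muscle and fibroblast markers, 6 genes each, were near 0 in the enterocytes (sums of at most 6.24), and they were scarce in the tissue labelled small intestine too, with sums of 2.07 to 9.95 and 9.95 to 33.3. Intestine libraries of the same genotype differed by about the sampling noise (chi-square per degree of freedom 0.987 to 1.12 over 9 pairs, of which 5 had p under 0.05), against 6.26 to 20.2 over 16 pairs of enterocyte libraries. The intestine libraries of a genotype were therefore counted as 1 sample: that comparison is between 2 preparations, has no test, and its intervals cover counting error only.

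In Mfge8 null enterocytes Rdh7, Adh1, Aldh1a1 and Retsat fell, and Rbp2, the gene for the retinol carrier, did not pass the test. Rdh7, a retinol dehydrogenase, was at 23.1% of its WT mean, Aldh1a1, which makes retinoic acid from retinal, at 29.8%, Adh1, an alcohol dehydrogenase that oxidises retinol, at 35.9%, and Retsat, which saturates retinol to dihydroretinol, at 41.7%. Rbp2 was at 106% and Isx at 88.4%. By limma on log2(value + 1), with p-values adjusted over all 9432 genes tested and a threshold of 0.05, 4 of the 8 genes passed, all of them lower in the null libraries. Of all genes tested, 3.21% passed, 1.63% as lower and 1.58% as higher. The median log2 change was -1.04 over the 8 genes and 0.001 over all genes tested. The 8 genes were chosen with earlier results of these data known. Comparisons with all genes therefore describe the 8 and do not test them as a set. The ranges of the 2 genotypes were apart for 3 of the 8, all lower in null, as they were for 6.42% of all genes tested (3.07% lower and 3.35% higher).

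**Figure D1:**
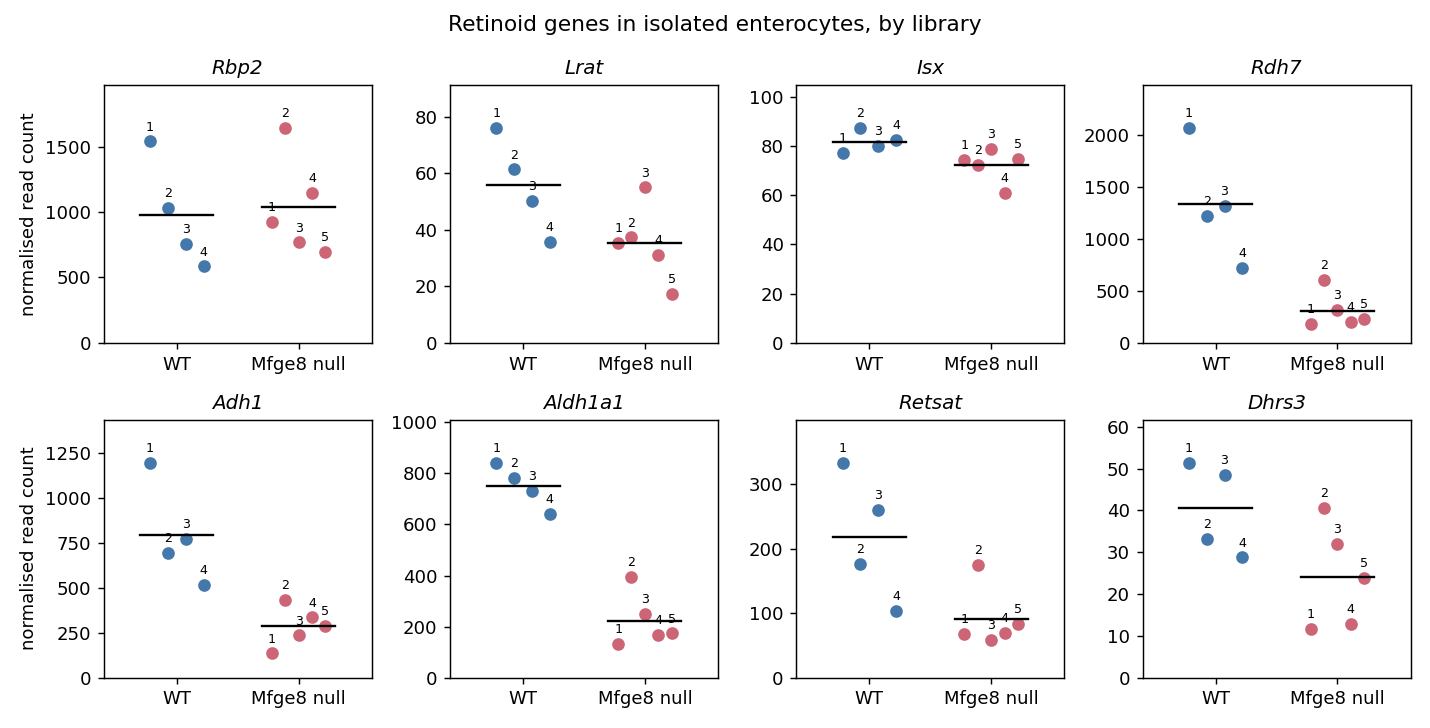
Normalised read counts of the 8 genes in the 4 WT and 5 Mfge8 null enterocyte libraries, 1 point per library with its replicate number, and the group mean as a horizontal line. The null points of Rdh7, Adh1 and Aldh1a1 lie below all WT points, while those of Rbp2 span the WT range.

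Rdh7 lies on chromosome 10, 127884027 to 127889247 (RefSeq, GRCm38.p6, as for all positions here), in a cluster of related short-chain dehydrogenases. The WT libraries 1 to 4 held 2066, 1222, 1315 and 724 normalised reads of Rdh7 and the null libraries 1 to 5 held 186, 608, 315, 200.2 and 227. All 5 null libraries were below the lowest WT library, and null 2 came nearest to it. Rdh7 fell by 2.17 on the log2 scale (SE 0.32, adjusted p = 0.000932 by limma). It was the highest of the 8 genes in WT enterocytes, where its range overlapped that of Rbp2, the next. In null enterocytes Rbp2 was the highest and its range lay above that of Rdh7. Rdh9, a neighbour in the cluster, went from 258 ± 55.6 to 325 ± 46.0 (SD, n = 4 and 5) and did not pass (limma adjusted p = 0.340). The last 500 bases of the annotated Rdh7 transcript share no run longer than 12 bases with transcripts of Rdh9, Rdh16 or Rdh1, so 100-base reads can be told apart there.

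Aldh1a1 (chromosome 19, 20492583 to 20643463) encodes a cytosolic retinal dehydrogenase. Its WT libraries held 842, 782, 731 and 642 normalised reads, and its null libraries 133, 395, 249, 167 and 173. The WT values lay close together, with a coefficient of variation of 11.3%, against 46.9% in the null group, and the groups did not overlap. Aldh1a1 fell by 1.84 on the log2 scale (SE 0.24, limma adjusted p = 0.000323). Its close relative Aldh1a7 fell from 84.0 ± 5.68 to 43.0 ± 12.1 (limma adjusted p = 0.0149; 0.0644 without WT 1). In the last 500 bases of the annotated transcripts the longest run Aldh1a1 and Aldh1a7 share is 24 bases. The longest run of the Aldh1a1 ends found anywhere in Aldh1a7 is 95 bases, just under the read length of 100, so some reads of the pair may be hard to assign. The other retinal dehydrogenases were almost absent: Aldh1a2 and Aldh8a1 had no read in the 9 enterocyte libraries, where a count of 0 allows up to 1.22 to 1.85 reads per 1000000 (3 reads of the total), and Aldh1a3 held at most 1.64 normalised reads.

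Adh1 (chromosome 3, 138277585 to 138290698) held 1195, 694, 769.8 and 516 normalised reads in the WT libraries and 135, 431, 235, 335 and 288 in the null libraries. No null library reached the lowest WT library. Adh1 fell by 1.51 on the log2 scale (SE 0.28, limma adjusted p = 0.00643), and leaving out any 1 library kept the call. Of the other alcohol dehydrogenase genes of the same chromosome region, Adh6a was at 1191 ± 427 in WT and 736 ± 253 in null, Adh4 at 19.4 ± 13.9 and 4.12 ± 2.88, and Adh5 at 90.8 ± 17.0 and 71.2 ± 12.1 (SD, n = 4 and 5). None of these 3 passed (limma adjusted p = 0.153, 0.0610 and 0.391).

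Retsat (chromosome 6, 72598602 to 72607488) held 333, 176, 259 and 103 normalised reads in the WT and 67.6, 174, 58.9, 69.6 and 83.7 in the null libraries. Here the groups overlapped, since null 2 lay above WT 4. Retsat fell by 1.24 on the log2 scale (SE 0.33, limma adjusted p = 0.0479), but the call depended on single libraries: the adjusted p was 0.191 without WT 1, 0.0898 without WT 2, 0.143 without WT 3, and 0.103, 0.121, 0.112 and 0.0890 without null 1, 3, 4 and 5.

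The genes of retinol binding and esterification, and Isx, did not pass. Rbp2, which encodes the cellular retinol-binding protein of the small intestine (chromosome 9, 98490537 to 98509771), held 1539, 1029, 753 and 585 normalised reads in the WT and 927, 1642, 767, 1143 and 698 in the null libraries. The 2 ranges nearly coincided, and the log2 difference of 0.11 (SE 0.27, limma adjusted p = 0.897) had a 95% interval of -0.46 to 0.68. Lrat, whose enzyme makes retinyl esters, held 76.0, 61.3, 50.2 and 35.7 in WT and 35.3, 37.3, 54.9, 31.1 and 17.2 in null libraries. Its log2 difference was -0.69, with an interval of -1.31 to -0.07 before adjustment (limma adjusted p = 0.255). Isx varied least, with 77.2 to 87.3 in WT and 61.0 to 78.9 in null libraries, and its difference of -0.18 (limma adjusted p = 0.636) had an interval of -0.51 to 0.15. Dhrs3, whose enzyme reduces retinal back to retinol, lay at 28.8 to 51.4 in WT and 11.8 to 40.6 in null enterocytes (log2 difference -0.83, limma adjusted p = 0.234).

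Reads of each gene per read of Rbp2 compare genes within a library, whatever its scaling (Rbp2 was chosen as the base after its values were seen). For Rdh7 this ratio was 1.19 to 1.75 in WT and 0.175 to 0.410 in null libraries. For Adh1 it was 0.674 to 1.02 and 0.146 to 0.412, for Aldh1a1 0.547 to 1.10 and 0.144 to 0.324, and for Retsat 0.171 to 0.344 and 0.0609 to 0.120. These 4 ratios did not overlap between the genotypes, which held in the lower direction for 1.54% of all genes tested, and those of Lrat, Isx and Dhrs3 overlapped. In the intestine, where Rbp2 itself was higher in Cd36 null, the ratios of Rdh7 (0.333 to 0.387 in WT and 0.230 to 0.243 in null), Adh1 (1.36 to 1.52 and 0.872 to 1.08), Aldh1a1 (0.419 to 0.483 and 0.279 to 0.306) and Isx (0.225 to 0.274 and 0.121 to 0.175) were also lower without overlap, as were those of 47.6% of all genes tested there.

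Shown as examples are the sequences before the start of Rbp2, and of Adh1 and Aldh1a1, which fell while Rbp2 ranged as in WT. They are the 250 bases before the RefSeq start (GRCm38.p6), on the plus strand at chr9:98490287-98490536, chr3:138277335-138277584 and, for the downstream of the 2 annotated starts of Aldh1a1, chr19:20601718-20601967. Capitals mark matches on either strand to AGGTCA, the core site of nuclear receptors such as those of retinoic acid, to TTTAT, a site of CDX proteins, and to AGATAA, a site of GATA proteins, and a match to TTTAT overlaps one to AGATAA once in each sequence.
Rbp2: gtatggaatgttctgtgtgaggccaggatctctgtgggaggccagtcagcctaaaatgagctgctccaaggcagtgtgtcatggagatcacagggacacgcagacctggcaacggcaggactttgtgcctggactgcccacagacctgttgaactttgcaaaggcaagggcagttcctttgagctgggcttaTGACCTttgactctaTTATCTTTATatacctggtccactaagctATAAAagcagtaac
Adh1: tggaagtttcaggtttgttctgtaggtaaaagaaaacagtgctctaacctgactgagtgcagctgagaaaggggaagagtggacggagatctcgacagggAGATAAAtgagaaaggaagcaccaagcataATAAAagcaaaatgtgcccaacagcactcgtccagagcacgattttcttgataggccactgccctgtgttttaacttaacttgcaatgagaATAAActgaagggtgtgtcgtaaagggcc
Aldh1a1: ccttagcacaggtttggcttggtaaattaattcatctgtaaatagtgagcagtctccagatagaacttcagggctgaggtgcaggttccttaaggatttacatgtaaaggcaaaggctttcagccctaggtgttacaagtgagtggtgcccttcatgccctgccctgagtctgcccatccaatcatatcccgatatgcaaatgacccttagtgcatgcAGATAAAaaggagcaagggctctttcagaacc
The window of the other start of Aldh1a1, at chr19:20492333-20492582, holds no match to any of them. The 8 genes have 12 such windows, since Aldh1a1, Rdh7 and Dhrs3 have several starts. AGGTCA was found in 2 of the 12, 1 each of Rbp2 and Rdh7, and in 14.0% of all 32851 windows of this length. TTTAT was in 6 of the 12 and in 37.3% of all windows. AGATAA was in 3 of the 12, 1 each of Rbp2, Adh1 and Aldh1a1, and in 9.99% of all windows. The 3 windows with AGATAA are those printed. Rdh7 and Retsat also fell, but their windows hold no AGATAA and are not printed. The printed windows therefore do not stand for all the genes that fell. Direct repeats of AGGTCA with spacers of 1, 2 or 5 bases were in none of the windows of the 8 genes, and each was in at most 0.0335% of all windows. A match is a description of the letters, and none of these data measure binding.

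Single enterocyte libraries stood at the ends of their group for several of the 8 genes. WT 1 was the highest WT library for 7 of the 8 and WT 4 the lowest for 7. Among the null libraries null 2 was the highest for 6 of the 8, while the lowest was null 1 for 4 genes, null 5 for 2 and null 3 and null 4 for 1 each. Position along the gut was scored in SD units as 5 proximal against 6 ileal markers. Between the genotypes 1 marker of each list passed by limma. The proximal Onecut2 was lower (log2 difference -1.23) and the ileal Slc51b higher (0.81) in null libraries, so the score holds genes that differ by genotype. The score was 1.34 in WT 1, -0.13 in WT 4 and 0.16 in both other WT libraries, and -0.22, 0.81, -1.23, 1.22 and -2.11 in null 1 to 5. The 3 libraries with the highest scores held the 3 highest values of Rbp2, but null 4, with the highest null score, was the highest null library for none of the 8 genes. With the score as a covariate, Rdh7, Aldh1a1 and Adh1 were lower by a log2 of -2.02, -1.77 and -1.35 (limma adjusted p = 0.00233, 0.000887 and 0.0137), while Retsat, at -1.06 against -1.24 without the covariate, did not pass (adjusted p = 0.104). Without null 3 and null 5, which have the lowest scores, Rdh7 and Aldh1a1 passed with changes of -2.13 and -1.85 (limma adjusted p = 0.0126 and 0.00390) and Adh1 did not (-1.49, adjusted p = 0.0533).

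**Figure D2:**
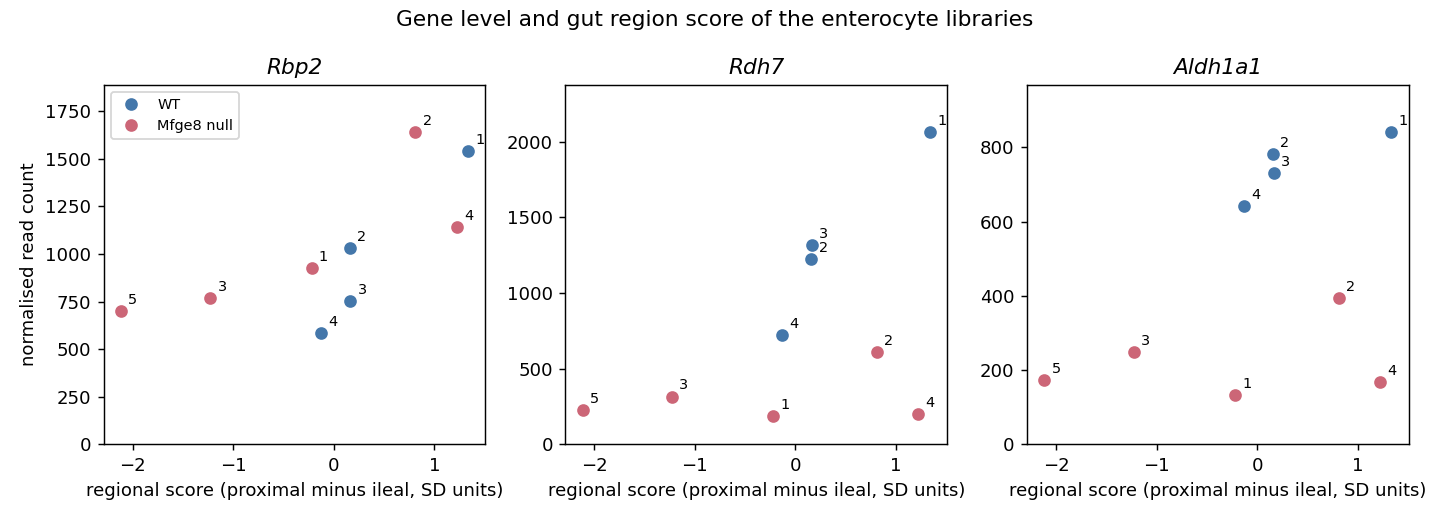
Normalised read counts of Rbp2, Rdh7 and Aldh1a1 against the regional score of each enterocyte library (proximal minus ileal markers, in SD units), 1 numbered point per library, 4 WT and 5 Mfge8 null. Rbp2 is highest in the 3 libraries with the highest scores, while Rdh7 and Aldh1a1 are lower in every null library than in every WT library.

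Of the markers of other cell types, only Jchain passed the threshold between the enterocyte genotypes. The 8 T cell and intraepithelial lymphocyte markers summed to 1156 to 3398 normalised reads in WT and 3162 to 7391 in null libraries, ranges that overlapped. No marker of these 8 was at 0 throughout and none was past the threshold. All 8 had higher means in null libraries, with a median log2 difference of 0.96. Gzma alone had means of 2086 in WT and 4112 in null libraries. The 8 enteroendocrine markers all had lower means in null libraries, with a median log2 difference of -0.53 and none past the threshold. The 5 B and plasma cell markers summed to 17.5 to 124 and 206 to 499, with Jchain higher and Cd79a at 0. The 10 enterocyte markers summed to 39570 to 60664 in WT and 40873 to 69373 in null libraries, with 0 of 10 past the threshold by limma. The part of these cells in the results was not tested. Since the libraries are bulk samples, fewer cells of a type and less RNA per cell cannot be told apart.

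Beyond the 8 genes, a list of 66 further genes of the pathway had 32 that were tested in enterocytes. Of these 4 fell, 2 rose and 26 did not pass, while 3.21% of all genes tested passed. This list too was chosen with earlier results of these data known. The median log2 change of the 32 was -0.18. Among genes of carotenoid and ester entry, Cd36 fell from 135 ± 20.2 to 65.8 ± 25.1 (limma adjusted p = 0.0234), a call lost without WT 1, WT 2, WT 3 or null 3 (adjusted p 0.0864, 0.0807, 0.0639 and 0.0545). Pnliprp2, of the pancreatic lipase family, rose from 13.2 ± 4.03 to 35.3 ± 8.45 (limma adjusted p = 0.0103), a call lost without null 3 and null 5 (0.0617) and in edgeR without WT 4 and null 3 (0.0578). Bco1, whose enzyme cleaves beta-carotene to retinal, lay at 40.5 to 111 in WT and 12.8 to 77.9 in null enterocytes and did not pass (limma adjusted p = 0.360). Scarb1, the carotenoid and lipid receptor that ISX represses, was too low to be tested, at 0 to 3.92 normalised reads in WT and 0.820 to 6.58 in null libraries.

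Of 5 tested genes of esterification and ester hydrolysis, the carboxylesterases Ces1d and Ces1e fell, from means of 30.9 and 33.2 in WT to 3.21 and 6.16 in null libraries, without overlap (limma adjusted p = 0.000599 and 0.00228). These are close copies, but the longest run shared between the last 500 bases of their transcripts is 26 bases. Dgat1, which can also esterify retinol, was at 4027 ± 710 and 4322 ± 359 and did not pass (limma adjusted p = 0.802). In the group of retinol and retinal oxidoreductases 2 of 15 tested genes passed, Rdh7 and Adh1, and 12 of the 15 had negative changes. Dhrs4, another retinal reductase, went from 395 ± 70.1 to 238 ± 74.8 (limma adjusted p = 0.0538).

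No receptor gene passed: Rara, Rxra, Rxrb and Ppard were tested, with log2 changes between -0.22 and 0.25, and Rarb, Rarg and Rxrg were too low to be tested. Tgm2, a transglutaminase whose gene is a known target of retinoic acid, rose from 67.1 ± 19.4 to 142 ± 55.2 (limma adjusted p = 0.0333), with overlapping groups. That call was lost without WT 1, 2 or 3 (adjusted p 0.111, 0.0709 and 0.114) and without null 1, 4 or 5 (0.0541, 0.0693 and 0.0747). Of the genes of retinoic acid breakdown, Cyp26a1 had no read in any library and Cyp26b1 held at most 3.28 normalised reads in enterocytes. In all, 16 of the 74 genes of the pathway had no read in the 9 enterocyte libraries, among them Stra6 and Crabp2.

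**Figure D3:**
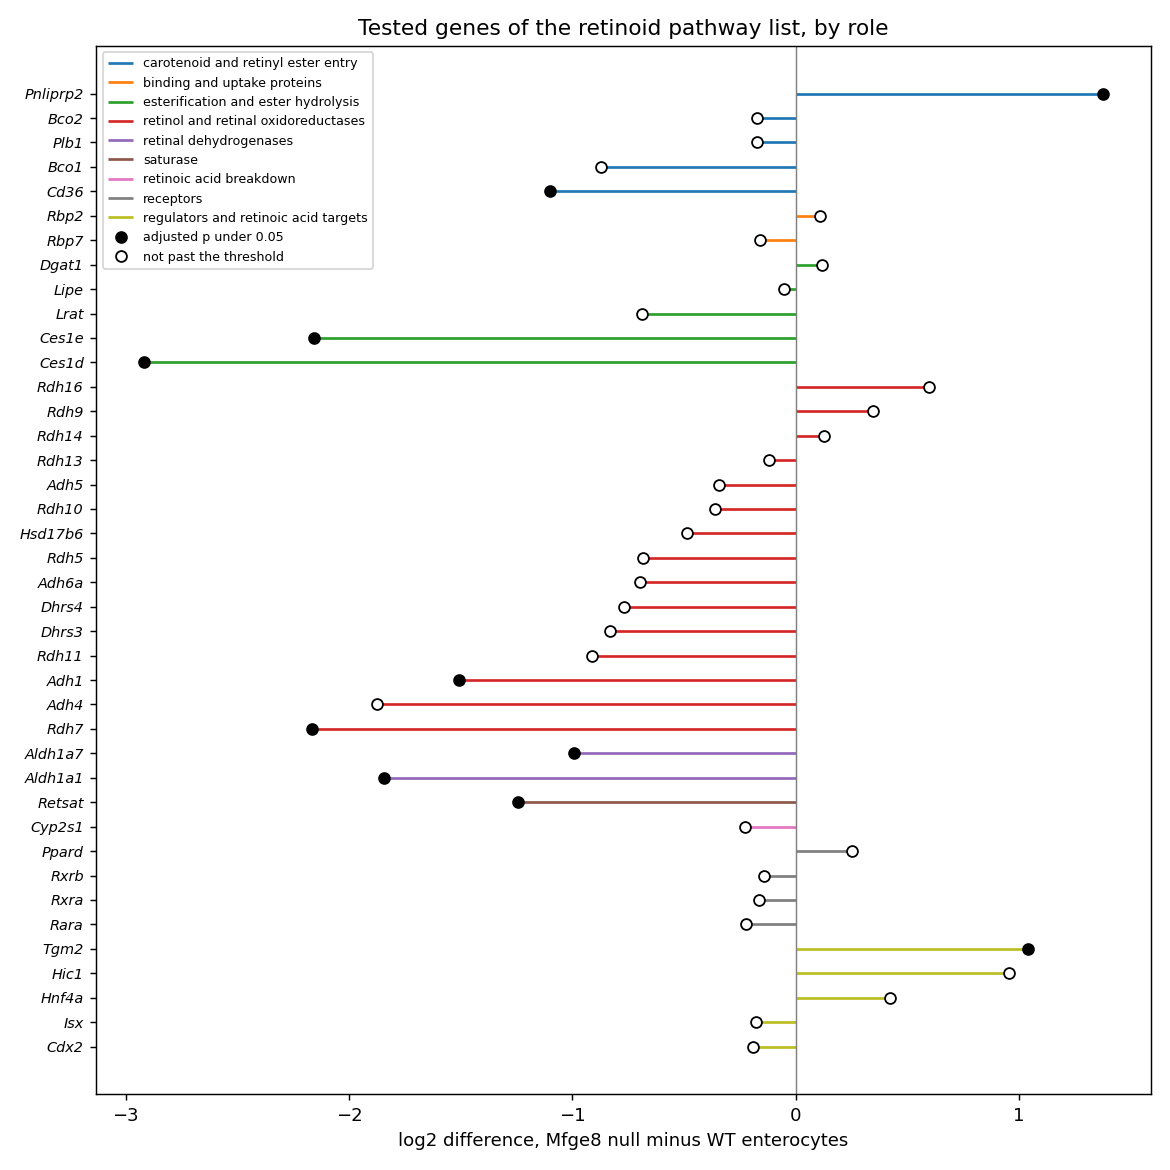
Log2 difference between Mfge8 null and WT enterocytes for the 40 tested genes of the pathway list, the 8 genes included, grouped by role. Filled points passed an adjusted p of 0.05 by limma and open points did not; 8 of the filled points are negative and 2 positive.

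The 9 enterocyte libraries differed in regional score and in depth. As a description of likeness over them, each of the 8 genes was set against the other 9431 tested genes. The measure was Pearson's r of the deviations from the genotype means, with the regional score not taken out. The 3 most alike genes of each of the 8 had r between 0.93 and 0.998, and 0 of these 24 genes was in the pathway list. These are top values picked from 9431 genes over 9 libraries. Neither their size nor the 0 of 24 can therefore be read as a result about the pathway. For Rbp2 they were Fut8, Mea1 and Ugt2b36 (r 0.97, 0.97 and 0.96), and for Rdh7 they were Pgam1, Tmem219 and Tmem139 (0.997, 0.98 and 0.98). Among the 8, the deviations of Aldh1a1 were most like those of Rdh7 (r = 0.89, 9 libraries), and those of Isx had r between -0.45 and 0.28 with the other 7 genes.

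In the intestine none of the 8 genes was past 1.5 fold between the Cd36 null and WT preparations, the size used here in place of a test, while 8.99% of the 9314 genes with enough reads were (3.73% higher and 5.26% lower in Cd36 null). The largest difference was that of Rbp2, which was higher in Cd36 null. Its values were 396, 424, 415 and 425 normalised reads in the WT and 587, 574 and 525 in the null libraries. The ratio of null to WT was 1.35, with a counting interval of 1.27 to 1.45, and the libraries did not overlap. Isx held 109, 97.1, 109 and 95.4 in WT and 77.8, 69.2 and 91.6 in null libraries, a ratio of 0.780 (0.663 to 0.915), again without overlap.

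Libraries of the 2 preparations did not overlap for 4 of the 8 genes and for 16.5% of all genes tested. Of all genes tested, 8.61% were higher and 7.91% lower in this way. Among the 4, Rbp2 and Retsat were higher, and Isx and Rdh7 lower, in Cd36 null. Since the libraries of a genotype count as 1 sample, their lack of overlap speaks to counting precision only. Rdh7 held 138 to 164 in WT and 128 to 135 in null libraries (ratio 0.872, interval 0.767 to 0.991), and Retsat 72.9 to 84.7 and 86.9 to 115 (1.19, 1.01 to 1.40). Adh1, at 576 to 626 and 501 to 582 (ratio 0.917, interval 0.861 to 0.976), and Aldh1a1, at 174 to 196 and 150 to 176 (0.874, 0.779 to 0.980), had ratios below 1 beyond counting error, with libraries that overlapped. Lrat and Dhrs3, both at 18.1 to 36.1 normalised reads, had ratios of 1.21 (0.912 to 1.62) and 0.862 (0.647 to 1.14), whose intervals include 1, and the direction of Dhrs3 rested on null 1, with a log2 difference of -0.20 with it and 0.02 without it.

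**Figure D4:**
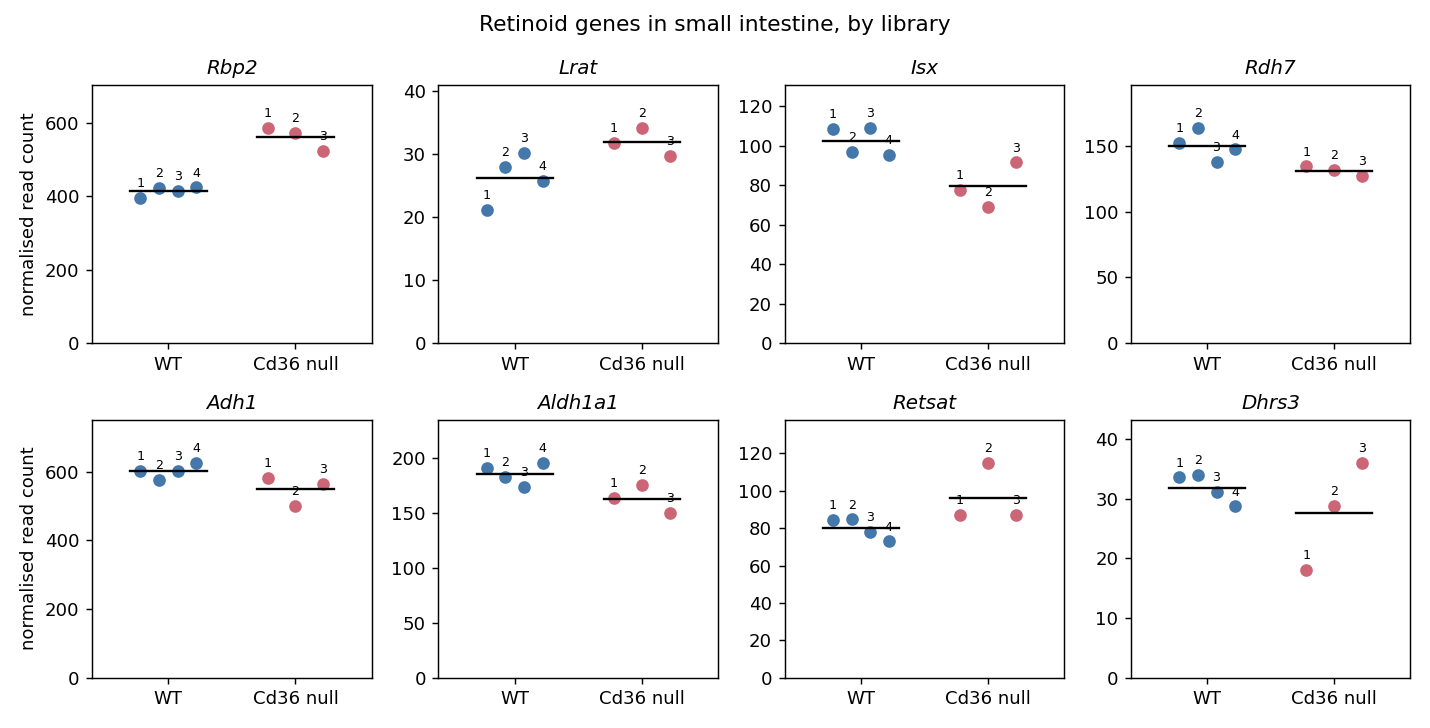
Normalised read counts of the 8 genes in the 4 WT and 3 Cd36 null intestine libraries, 1 point per library with its replicate number, and the group mean as a horizontal line. Rbp2 is higher and Isx lower in all 3 null libraries, and libraries of a genotype lie close together because they differ by about the sampling noise.

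Of the other 32 pathway genes with enough reads in the intestine, 2 were higher and 3 lower past 1.5 fold. Over all genes with enough reads there, 8.99% were past 1.5 fold. The pathway genes past 1.5 fold were the targeted Cd36 itself, Bco1, Plb1, Pnliprp2 and Rdh11. Scarb1 was not among them. Bco1 held 23.1, 26.9, 33.3 and 28.7 normalised reads in the WT and 102, 73.5 and 76.8 in the null libraries, a ratio of 3.04 (interval 2.43 to 3.84). All 3 null libraries lay above the WT libraries. Plb1, a brush border phospholipase that also cleaves retinyl esters, held 151, 151, 137 and 160.1 in WT and 50.7, 44.7 and 48.1 in null libraries, a ratio of 0.321 (0.266 to 0.384). Pnliprp2 held 39.4 to 54.4 and 88.8 to 104, a ratio of 2.02 (1.67 to 2.44), and Rdh11, at 2.71 to 11.3 normalised reads over all 7 libraries, had overlapping values. The median log2 difference was 0.01 over these 32 genes, -0.16 over the 8 genes and -0.004 over all genes tested.

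RNA levels of some markers of region and of cell types differed between the 2 intestine preparations. The 7 proximal markers summed to 9357 to 9971 normalised reads in WT and 10681 to 10854 in Cd36 null libraries, with 0 past 1.5 fold. The 6 ileal markers summed to 3933 to 4059 and 3585 to 3662, with Fabp6, Slc10a2 and Osr2 lower past 1.5 fold. The ileal Clec2h, Slc51a and Slc51b were within 1.5 fold, with log2 differences of -0.002, -0.20 and -0.26. All 4 tuft cell markers with enough reads were higher past 1.5 fold. The 6 tuft markers summed to 96.0 to 102 and 206 to 218. Goblet markers summed to 7580 to 7872 in WT and 9006 to 9236 in Cd36 null libraries. Enteroendocrine markers summed to 311 to 342 and 429 to 450. T cell and intraepithelial lymphocyte markers summed to 704 to 923 and 603 to 623, with Ptprc, Gzmb and Cd7 lower past 1.5 fold. The sums of the enterocyte markers overlapped. Xist and the Y-linked gene Ddx3y were both present in all 7 libraries, with Xist at 472 in WT and 340.2 in Cd36 null on average, so the preparations differed in the level of a female-specific transcript too. As in the enterocytes, cell number and RNA per cell cannot be told apart. The part of these differences in the results was not tested.

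**Figure D5:**
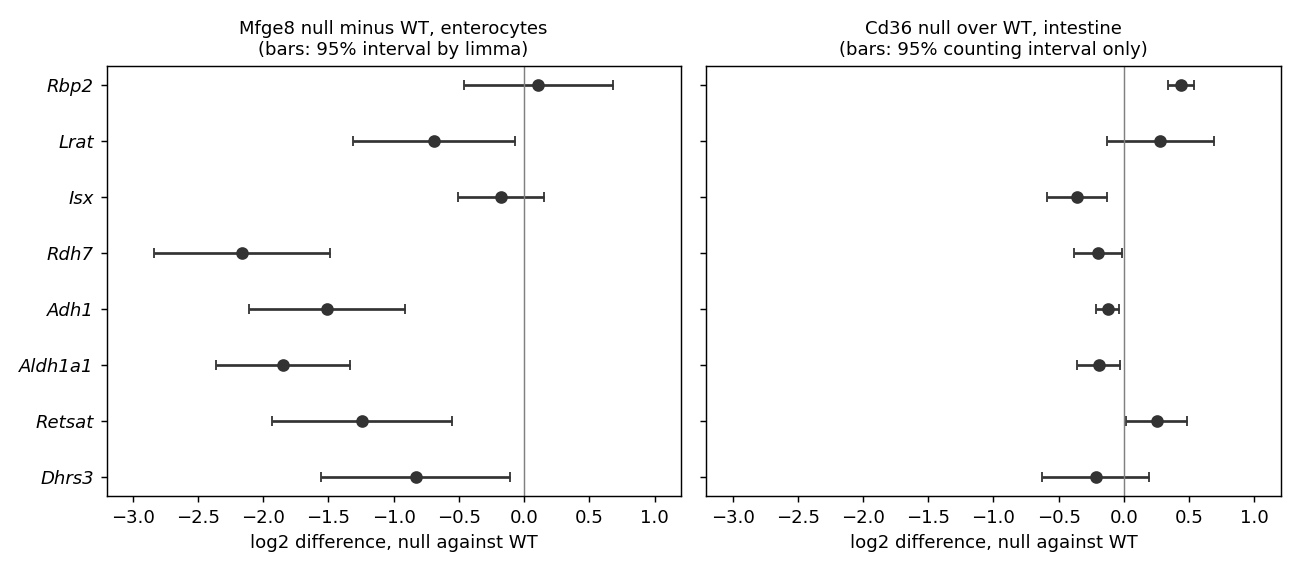
Log2 differences of the 8 genes between null and WT, in enterocytes (Mfge8, left, with 95% intervals by limma over 4 and 5 libraries) and in intestine (Cd36, right, with 95% intervals of the read ratio that cover counting error only). In enterocytes Rdh7, Aldh1a1, Adh1 and Retsat passed the adjusted test, and in intestine all 8 points lie within 1.5 fold.

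Levels in the WT groups are given side by side as reads per 1000000 reads assigned to genes, without a test, since the tables were made separately and from different preparations. Rdh7 was at 415 to 1092 in WT enterocytes and 156 to 184 in WT intestine, Aldh1a1 at 368 to 445 and 196 to 221, and Rbp2 at 335 to 813 and 446 to 479. Isx was at 40.8 to 47.96 and 108 to 123, and Adh1 at 296 to 632 and 645 to 706.5. In WT enterocytes the order was Rdh7, Rbp2, Adh1, Aldh1a1, Retsat, Isx, Lrat and Dhrs3. The ranges of neighbours overlapped among the first 4 and between Lrat and Dhrs3. In WT intestine Adh1 came first, followed by Rbp2, Aldh1a1, Rdh7, Isx, Retsat, Dhrs3 and Lrat, and only the last pair overlapped.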

How the data were processed

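Per the labels' protocols, RNA was isolated with RNeasy kits, of one type for enterocytes and another for tissue, and sequenced as single-end 3' tag libraries with a module for unique molecular identifiers. DESeq2 2.11.40, HTSeq 0.91, HISAT2 2.1.0 and Trimmomatic 0.38.1, and the build mm10, are named in the submitters' processing notes; their settings, the strand setting and the use of the identifiers are not given in the sources used here, and reads that are not collapsed are not independent molecules. The authors deposited a normalised signal per gene, in 1 table per experiment. Within each library 100% of the positive values were whole multiples of the smallest to within 1e-06, so reads were recovered as value over that step. In 2 enterocyte libraries, WT 4 and null 3, a size factor near 1 leaves the step less sure, and the count test was also run without them.

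Groups and replicate numbers came from the sample titles. A gene was tested where at least 4 enterocyte or 3 intestine libraries, the size of the smaller group, held a value of 5 or more. The Mfge8 comparison used limma 3.58.1 (R 4.3.3) with a trend on log2(value + 1), which understates the change of low genes, 2-sided, with Benjamini-Hochberg adjustment. On the recovered reads edgeR 4.0.16 called 317 genes and DESeq2 1.42.0 called 430, against 303 by limma. The Cd36 comparison gives the ratio of summed reads over summed size factors with an exact conditional binomial 95% interval. Its log2 differences and medians in the text, and its 1.5 fold calls, used the ratio of group means, each plus 1. Procedures were tested on simulated data. Other alternatives were other pseudocounts, filters and scalings, a regional covariate, a replicate block and leaving out libraries. Named were the targeted genes, the 8 genes, list genes that passed or are close relatives, and the 3 most alike genes, of which those of 2 genes are printed. The 8 genes, the lists and the regional score were chosen with earlier results of these data known. The marker Defa30 was not used here. Positions and promoter windows are from RefSeq on GRCm38.p6, the assembly behind mm10, and all 8 genes matched by symbol.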

Additional observations from a re-analysis of the deposited data

Results flagged for a closer look

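Among 48 sets of values (16 genes in the 3 groups of 4 or 5 libraries), 3 had a library far from the others of its group by Dixon's criterion, which marks about 1 in 20 groups by chance. Retsat in Mfge8 null enterocytes was at 174 normalised reads in null 2, against 58.9 to 83.7 in the other null libraries. Tgm2 was at 29.9 in WT 2 of the intestine, against 39.4 to 41.0 in the other WT libraries. Ces1d was at 1.92 in WT 1 of the intestine, where each WT library held 2 reads.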

How the results depend on the processing

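The number of genes called in Mfge8 null enterocytes was 303 in the main test and 140 to 388 when single libraries were left out, the low counts being 140 (WT 1 left out), 173 (WT 2), 185 (null 3) and 199 (null 5). It was 116 without both null 3 and null 5, an alternative chosen after seeing the data, as was the edgeR test without WT 4 and null 3 (258 genes). Of the 8 genes, 4 passed in the main test, 3 to 4 when single libraries were left out and 2 without both null 3 and null 5. Rdh7 and Aldh1a1 passed in all 20 alternatives, Adh1 in 19 and Retsat in 8. The difference of Rbp2, not past the threshold, was -0.11 to 0.36 when single libraries were left out, negative without WT 4 (-0.11) or null 2 (-0.07), and -0.018 in edgeR without WT 4 and null 3.

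Same-numbered libraries did not deviate together (r of -0.12, -0.07, 0.21 and 0.09 for numbers 1 to 4), so the numbers were not taken as pairs. With the replicate block, to which null 5 adds nothing since its number has no WT library, 229 genes and 3 of the 8 passed, and Retsat did not (adjusted p = 0.0770). In the intestine 837 genes were past 1.5 fold, 879 to 1021 when single libraries were left out, 402 with a pseudocount of 5, 2331 without a filter on low values and 973 as the mean over the shared replicate numbers, a value with no test and no pairing. Depth limits genes near 0: a count of 0 allows 1.22 to 1.85 reads per 1000000 in the enterocyte and 2.998 to 3.53 in the intestine libraries.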
